A study of Mus musculus with 30 samples.

Results

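Loss of the type I interferon receptor was examined here in mammary glands that carry no oncogene: the 8 arrays of IFNAR1-/- glands were set against the 7 arrays of WT glands, which are 15 of the 30 arrays of the series. Of 12147 named genes on the array, 11946 entered: those with a probe measured in 50% or more of each group. All mice were of the 129sv background and 19 weeks old, and whole inguinal glands were profiled. The groups differ in their labels by genotype alone, WT or IFNAR1-/-, and neither label names a transgene or a treatment. How the deletion was made is not given in the sources used here. The other 15 arrays, 6 of Her2/Neu+ and 9 of Her2/Neu+/IFNAR1-/- glands, serve below as a second comparison of the same deletion, now in mice with the Her2/Neu oncogene; the promoter of that transgene is not given in the sources used here. Gland RNA carried Cy5 and shared its array with a Cy3-labelled universal reference from mouse, and every level below is a log2 ratio of gland over that reference, capped by the authors' file at 6 in either direction. A change is the mean of the IFNAR1-/- arrays minus the mean of the WT arrays on that scale, with its standard error (SE).

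IFNAR1 and IFNAR2 are the chains of the receptor through which all type I interferons signal. Bound interferon activates the kinases JAK1 and TYK2, and their signal leads to the assembly of ISGF3, a factor that contains IRF9 and binds interferon-stimulated response elements in the promoters of antiviral genes. Tissues that are not infected keep a low tonic level of this signalling. The mammary gland of a virgin mouse is mostly fat, in which ducts of luminal and basal epithelium, vessels, immune cells and a lymph node are embedded.

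Markers of white fat and of luminal epithelium lay above the reference in both groups. The adipocyte markers helped to infer the direction of the ratio, so their level is no check of the tissue. Markers of white adipocytes averaged 5.30 ± 0.18 (SD) over the 7 WT arrays and 5.31 ± 0.11 over the 8 IFNAR1-/- arrays, near the upper limit of the scale, and luminal epithelial markers averaged 2.04 ± 0.38 and 2.41 ± 1.11. Skeletal muscle markers set 3 IFNAR1-/- arrays apart. Their mean was 4.02, 4.46 and 4.88 on the arrays of samples 41, 42 and 44, against -0.52 to 0.23 on the other IFNAR1-/- arrays and -0.38 to 0.48 on the WT arrays. Samples 41 and 42 also had the lowest luminal means, 0.54 and 0.95. Of 82 named genes refitted without these arrays, those whose change moved by over 1.5 times are given both ways. In a whole gland, fewer cells of a type and less RNA per cell cannot be told apart.

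Many values occur digit for digit on several probes of 1 array. These repeated values made up 12.7% to 42.7% of the values on these 15 arrays, and how they arose is not stated. In 31.6% of the genes at least 50% of the values of a group were repeated (mostly repeated genes). The number of repeated values is given for part of the genes described, and others may hold some. Of 33 interferon-stimulated effector genes 22 were not mostly repeated, and of 8 skeletal muscle markers 1.

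The deleted gene itself did not separate the groups on this array. Ifnar1 (chr16:91485032-91510523, 2 probes) ran from -0.47 through a median of 0.06 to 2.32 in WT and from -1.03 through -0.06 to 1.55 in IFNAR1-/- glands, a change of -0.23 ± 0.56 (limma, adjusted p = 0.963). Whether its probes lie in the deleted part is not known, so these values check no label. Ifnar2, the other chain of the receptor, had a change of 0.14 ± 0.33 (adjusted p = 0.958), and Erbb2, the gene known as Her2/Neu, of 0.33 ± 0.26 (adjusted p = 0.838). Without samples 41, 42 and 44 these were 0.32 ± 0.36 and 0.55 ± 0.29. Neither gene separated the groups.

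Few single genes differed between the groups beyond the spread between glands. In limma's fit, 4 genes passed a Benjamini-Hochberg adjusted p under 0.05, 0.0335% of those tested: Glo1 and Tbc1d2 fell (0.0167%), and Flywch2 and Gfpt2 rose (0.0167%). Without adjustment, 812 genes (6.80%) had a p under 0.05, 364 of them higher (3.05%) and 448 lower (3.75%) in IFNAR1-/- glands. No inferred slide held both groups, so slide and genotype cannot be told apart. With the slide as a random block, 484 genes (4.05%) had a p under 0.05, 239 higher and 245 lower. The split of higher against lower depended on the scaling, being 485 to 395 after quantile normalization and 419 to 361 after median centring. Of the 8175 genes not mostly repeated, 2 passed the threshold (0.0245%) and 6.91% had an unadjusted p under 0.05, 2.91% higher and 4.00% lower; of the 3771 mostly repeated genes it was 6.55%, 3.34% higher and 3.21% lower. All 15 analyses that left out 1 array kept all 4 genes past the threshold.

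Glo1 encodes glyoxalase 1, the enzyme that detoxifies methylglyoxal, a reactive by-product of glycolysis. It lies at chr17:30592861-30612659 (GRCm38.p6) and was measured by 1 probe. Its level ran from 0.48 through a median of 0.96 to 1.25 in WT and from -1.17 through -0.58 to -0.02 in IFNAR1-/- glands. Every IFNAR1-/- array lay below every WT array, and none of the 15 values was a repeated one. Glo1 fell from 0.94 ± 0.27 (SD, n = 7) to -0.68 ± 0.36 (n = 8), a change of -1.61 ± 0.28 (SE), or 3.06-fold lower (adjusted p = 0.00879). After quantile normalization its change was -1.51, with an adjusted p of 0.0910. Over all alternatives its adjusted p ran from 0.000101 to 1. It was highest in array set 1 alone, the first 15 arrays in the order of the samples.

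Tbc1d2 encodes a GTPase-activating protein for RAB7, which acts in membrane traffic and cell adhesion (chr4:46604390-46650340, 2 probes). Its level ran from 0.19 through 0.57 to 1.70 in WT and from -2.89 through -1.07 to -0.48 in IFNAR1-/- glands, without overlap. Its change was -2.09 ± 0.36, or 4.27-fold lower (adjusted p = 0.00874). Of the IFNAR1-/- values, 2 of 8 were repeated ones; with all repeated values removed the change was -2.28 and the adjusted p 0.239, within a range of 0.000286 to 1 over the alternatives.

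Both genes that rose did so from WT values that were all repeated ones. Flywch2, a gene for a small zinc finger protein (chr17:23776914-23786216), ran from -0.03 through -0.01 to 0.13 on 5 WT arrays and from 1.76 through 2.62 to 4.07 on 6 IFNAR1-/- arrays. Its change was 2.73 ± 0.30 (adjusted p = 0.000556), with 5 of 5 WT and 2 of 6 IFNAR1-/- values repeated. Gfpt2, an isoform of the rate-limiting enzyme of the hexosamine pathway (chr11:49794155-49838620), ran from -0.21 through -0.01 to 0.80 on 7 WT arrays, all with repeated values. On 6 IFNAR1-/- arrays it ran from 2.96 through 3.43 to 6.0, none repeated, which gave a change of 4.02 ± 0.58 (adjusted p = 0.00478). The remaining IFNAR1-/- arrays had no value for these genes. Neither gene could be tested with the repeated values removed.

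**Figure D1:**
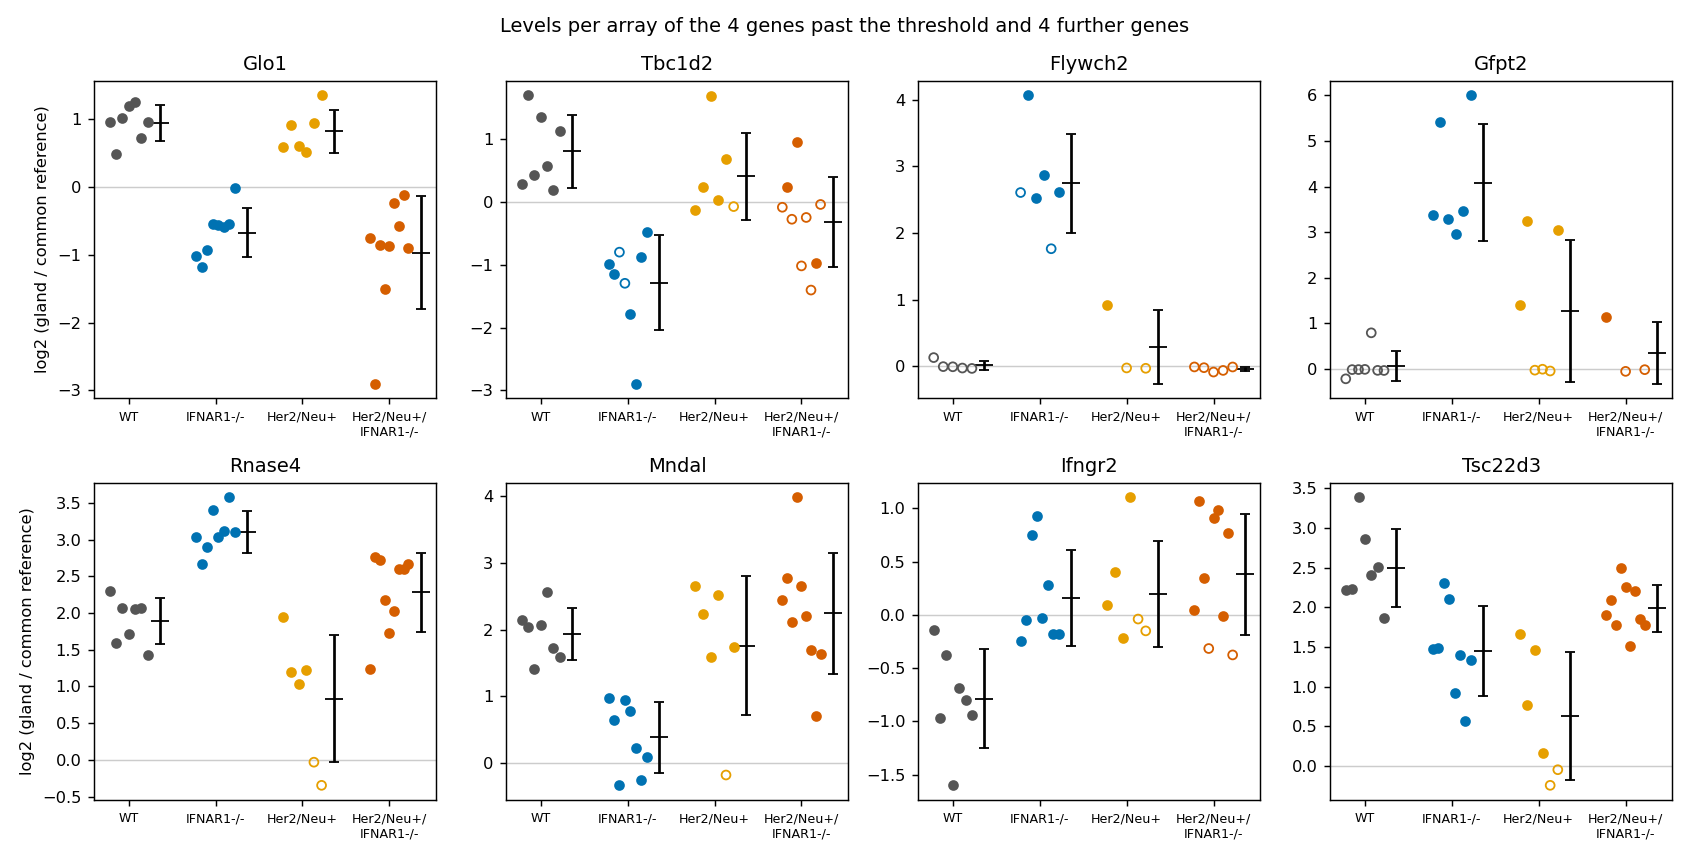
Each panel plots the log2 ratio of gland over common reference on every array with a value, in all 4 groups, for 1 gene; open circles are repeated values, and the bar beside each group is its mean ± SD. For Glo1 all 8 IFNAR1-/- arrays lie at or below -0.02 and all 7 WT arrays at or above 0.48, whereas the WT values of Flywch2 and Gfpt2 are all open circles.

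Just outside the threshold stood Ptdss2, a phosphatidylserine synthase, with a change of 1.19 ± 0.22 and an adjusted p of 0.0526 (7 of 7 WT values repeated), and Gpr6, an orphan receptor, with a change of 4.15 ± 0.71 and 0.0608 (3 of 6 WT values repeated). Next came Fabp3 and Rnase4, each with an adjusted p of 0.197 and no repeated value.

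Fabp3 encodes the fatty acid-binding protein of heart, muscle and brown fat, which carries fatty acids towards oxidation. It ran from -0.29 through 1.46 to 2.86 in WT and from -4.44 through -1.26 to 0.12 in IFNAR1-/- glands. The groups overlapped in part, with 4 of 8 IFNAR1-/- arrays below all WT arrays, and the change was -3.17 ± 0.71. Without the 3 arrays high in muscle markers the change was -4.17 ± 0.74 and passed the threshold (adjusted p = 0.0199); over all alternatives the adjusted p ran from 0.00703 to 1. Rnase4 encodes a secreted ribonuclease. It ran from 1.42 through 2.06 to 2.29 in WT and from 2.66 through 3.07 to 3.58 in IFNAR1-/- glands, so that all 8 IFNAR1-/- arrays lay above all WT arrays. Its change was 1.22 ± 0.28, and with repeated values removed it passed the threshold (adjusted p = 0.0380, within a range of 0.00258 to 1 over the alternatives).

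Groups that did not overlap were rare: 36 genes (0.301%), of which 17 lay above (0.142%) and 19 below (0.159%) the WT arrays. Besides the genes above, they included Lman1, a cargo receptor between endoplasmic reticulum and Golgi. It ran from -2.16 through -2.0 to -1.49 in WT and from -1.31 through -0.90 to -0.59 in IFNAR1-/- glands, a change of 0.97 ± 0.25 (adjusted p = 0.339). Eif4a2, an RNA helicase of translation initiation, ran from 1.08 through 1.35 to 1.69 in WT and from 0.19 through 0.68 to 1.02 in IFNAR1-/- glands, a change of -0.73 ± 0.21 (adjusted p = 0.526). Tpm1, a tropomyosin of muscle and contractile cells, also lay above all WT arrays, with a change of 1.29 ± 0.36 (adjusted p = 0.484). Its change was 0.49 ± 0.27 without the 3 arrays high in muscle markers. Axl, a receptor tyrosine kinase of macrophages and stroma that was named after its values were seen, lay above all WT arrays with a change of 1.24 ± 0.38 (adjusted p = 0.526).

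The other genes with the smallest p-values and mostly unrepeated values did not pass the threshold (adjusted p from 0.227 to 0.526). On the higher side they were Abhd5, the co-activator of adipose triglyceride lipase, with a change of 1.73 ± 0.45, the ubiquitin ligase gene Dtx3 with 1.30 ± 0.34 and the translation factor gene Eif3a with 1.23 ± 0.33. The myosin gene Myo1e followed with 1.22 ± 0.37, the steroid receptor co-chaperone gene Fkbp4 with 1.06 ± 0.31, and Ptov1 with 0.96 ± 0.25. Ets2, a transcription factor, and Ap3d1, a subunit of the AP-3 vesicle coat, showed 0.97 ± 0.28 and 0.93 ± 0.27. On the lower side stood Ica1l with -1.86 ± 0.54, the mitochondrial translation gene Rmnd1 with -1.20 ± 0.28, the ubiquitin ligase gene Ubr3 with -1.01 ± 0.26, and Yaf2, a Polycomb-associated gene, with -0.95 ± 0.26. These genes belong to no list examined here.

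**Figure D2:**
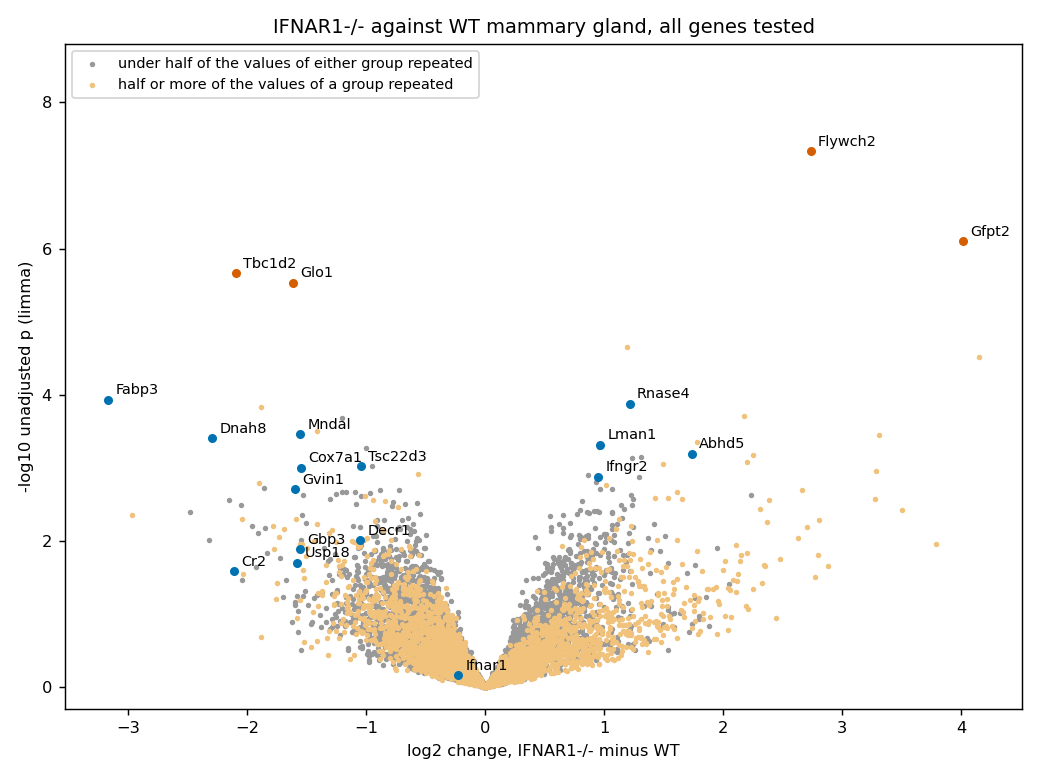
Each point is a gene: the x axis is the log2 change, IFNAR1-/- minus WT, the y axis the -log10 of the unadjusted limma p, and the 4 genes past the adjusted threshold are in dark orange and further genes named in the text in blue. Pale orange points, genes with at least 50% of the values of a group repeated, reach further to the right than to the left; Glo1 and Tbc1d2 stand apart at -1.61 and -2.09, and Ifnar1 lies near 0.

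Interferon-stimulated genes lay mostly lower in the glands without the receptor, though no listed gene passed the adjusted threshold. Of 33 effectors measured, such as 2'-5' oligoadenylate synthetases and Ifit genes, 28 had a negative and 5 a positive change, with a median of -0.46, against -0.07 over all genes tested. Of all 11946 genes tested, 6813 had a negative and 5133 a positive change. At an unadjusted p under 0.05, 4 effectors were lower and 0 higher, beside 3.75% and 3.05% of all genes. That count ran from 0 in array set 1 alone to 12 with array weights or in a fit of only the 15 arrays, and from 2 to 6 with 1 array left out. The count over all genes moved as well. At that p, 205 of 11088 genes were lower in array set 1 alone, 1093 of 11946 with array weights and 649 of 11946 with only the 15 arrays. On each array their mean ran from -0.19 through 0.06 to 0.72 in WT and from -0.71 through -0.30 to -0.13 in IFNAR1-/- glands, with overlap. The interferon-gamma GTPases and chemokines had a median of -0.91, with 7 of 8 negative and 3 at an unadjusted p under 0.05. Their median was -0.39, with 4 of 8 negative, in array set 2 alone and -0.58 without WT sample 55, and 1 of 8 was under 0.05 without IFNAR1-/- sample 47. T and NK cell markers (median -0.46, 8 of 10 negative) and B cell markers (median -0.65, 5 of 6 negative) lay on the same side. T and NK cell means ran from 0.32 to 2.61 on the WT and from -0.04 to 2.19 on the IFNAR1-/- arrays, and B cell means from -1.45 to 2.12 and from -2.13 to 1.67. With the B cell mean as a covariate the effector median was -0.61 and that of the GTPases -0.87. The part of B, T and NK cells in the result was not tested.

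Among the effectors, Rtp4, a chaperone and antiviral gene, had the smallest p: it ran from -2.95 through -2.39 to -0.14 in WT and from -5.27 through -3.72 to -1.97 in IFNAR1-/- glands, a change of -2.06 ± 0.64 (adjusted p = 0.542). Of the IFNAR1-/- arrays, 7 of 8 lay below all WT arrays. Parp14, a mono-ADP-ribosyltransferase, had a change of -1.15 ± 0.50 (adjusted p = 0.691). Among the GTPases, Gbp3 ran from -0.07 through 0.99 to 3.39 in WT and from -0.94 through -0.32 to 1.30 in IFNAR1-/- glands, a change of -1.55 ± 0.59 (adjusted p = 0.682). Igtp, an immunity-related GTPase, had a change of -1.17 ± 0.50, and the chemokine gene Cxcl10 of -1.34 ± 0.55, with 5 of 7 WT and 5 of 8 IFNAR1-/- values of Cxcl10 repeated. Outside the lists, the interferon-induced large GTPase gene Gvin1 ran from 1.88 through 2.29 to 3.74 in WT and from 0.12 through 0.55 to 2.82 in IFNAR1-/- glands, a change of -1.60 ± 0.47 (adjusted p = 0.526). Ifi47, another immunity-related GTPase gene, had a change of -2.16 ± 0.66 (adjusted p = 0.526) and was named after its values were seen.

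Signalling genes showed smaller changes. Of 6 receptor and JAK-STAT genes, 3 had a positive and 3 a negative change (median -0.05), the largest being Stat2 with -0.83 ± 0.43 (adjusted p = 0.752). Irf9 had a change of -0.53 ± 0.42, with 7 of 8 IFNAR1-/- arrays below all WT arrays and 1 above them. Of 10 interferon regulators, Usp18, the protease that removes ISG15 and restrains the receptor, was at -1.58 ± 0.64 (adjusted p = 0.682). MHC class I genes (median 0.00, 6 of 12 negative) and MHC class II genes (median -0.04, 5 of 7 negative) showed no member at an unadjusted p under 0.05. Members with the smallest p included Nlrc5, the activator of class I genes, with -1.0 ± 0.62, and Psmb10, an immunoproteasome subunit, with -0.33 ± 0.18. In class II they were H2-DMa, which loads class II molecules, with 1.15 ± 0.66, and Cd74, the invariant chain, with 0.54 ± 0.35.

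**Figure D3:**
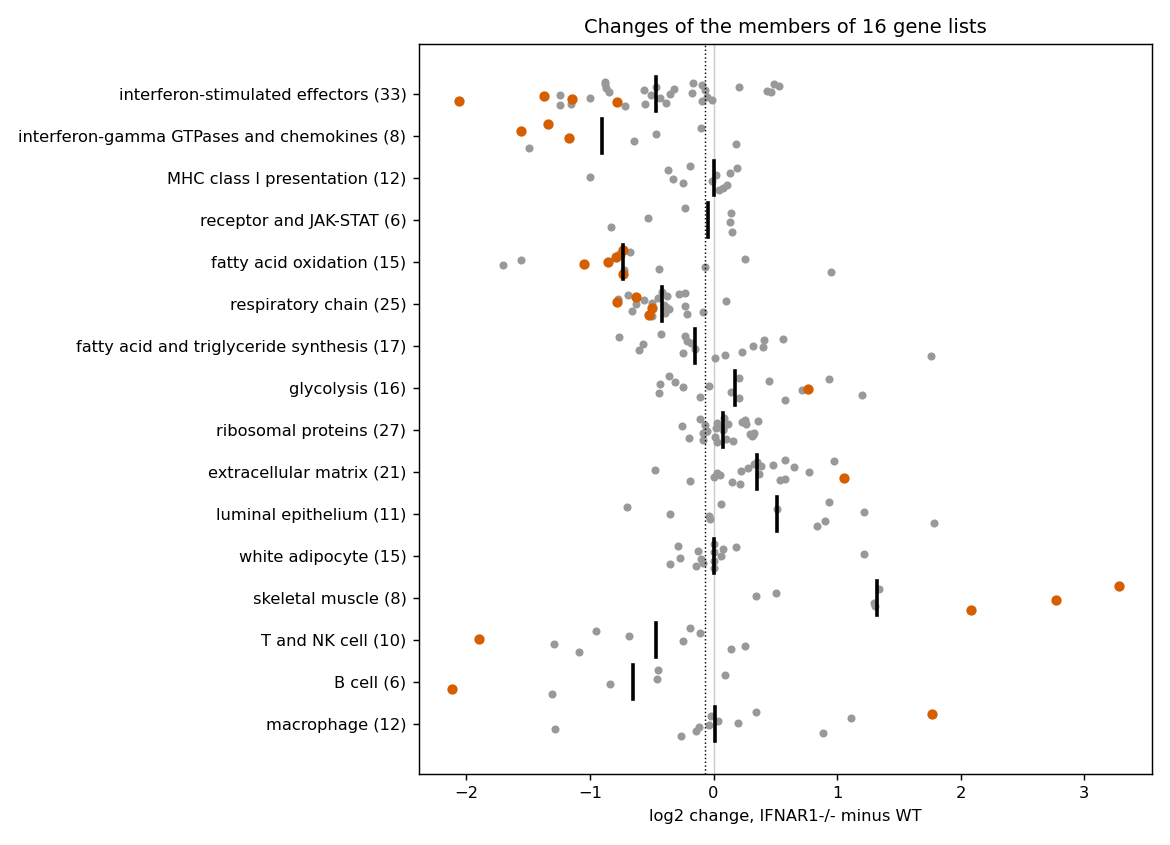
Each point is a gene, placed by its log2 change, IFNAR1-/- minus WT, in 1 of 16 lists with the number of members tested in brackets; dark orange points have an unadjusted p under 0.05, bars are list medians and the dotted line is the median of all genes, -0.07. Points of both interferon lists and both oxidative lists lie mostly left of 0, those of MHC class I genes and ribosomal proteins on both sides.

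The PYHIN genes, which sit together on chromosome 1 and encode DNA-binding proteins such as the cytosolic DNA sensor AIM2, were collected after their values were seen. All 8 measured members had a negative change (median -0.56). Mndal ran from 1.41 through 2.05 to 2.57 in WT and from -0.34 through 0.43 to 0.98 in IFNAR1-/- glands, without any overlap (change -1.56 ± 0.38, adjusted p = 0.30). Ifi203 also lay below all WT arrays, running from -0.18 through -0.07 to 2.13 in WT and from -1.32 through -0.57 to -0.38 in IFNAR1-/- glands (change -1.10 ± 0.33, adjusted p = 0.526). The other 6 ranged from -0.99 to -0.04, none at an unadjusted p under 0.05. Members of this family resemble each other in sequence, and how far their probes are specific is not known. With the oncogene the family median was 0.18, with 3 members lower and 5 higher.

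The stretches before the start sites of 4 of these genes and of Glo1 are shown because the interferon-stimulated response element is the sequence through which ISGF3 acts. Each is the 250 bases before a RefSeq start site (GRCm38.p6), 5' to 3' on the gene's strand. Mndal, Ifi203 and Gbp3 have 2 such windows each, and the one with a match is shown where they differed: 1 of 2 windows held a match in Ifi203 and in Gbp3, and 2 of 2 in Mndal. The windows are those of Mndal on the minus strand at chr1:173879959-173880208, Ifi203 on the minus strand at chr1:173942493-173942742, Gbp3 on the plus strand at chr3:142559794-142560043, Igtp on the plus strand at chr11:58199306-58199555 and Glo1 on the minus strand at chr17:30612660-30612909. Capitals mark matches to a core of that element, GAAA followed by any 2 bases and GAAA again, searched on both strands; on the opposite strand it reads TTTC, any 2 bases and TTTC. In Gbp3 both of its matches overlap and form 1 run of capitals.
Mndal promoter: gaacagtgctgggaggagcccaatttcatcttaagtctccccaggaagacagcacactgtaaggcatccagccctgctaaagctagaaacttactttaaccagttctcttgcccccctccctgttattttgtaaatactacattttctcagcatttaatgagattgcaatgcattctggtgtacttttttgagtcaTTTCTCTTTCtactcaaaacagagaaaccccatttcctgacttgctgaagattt
Ifi203 promoter: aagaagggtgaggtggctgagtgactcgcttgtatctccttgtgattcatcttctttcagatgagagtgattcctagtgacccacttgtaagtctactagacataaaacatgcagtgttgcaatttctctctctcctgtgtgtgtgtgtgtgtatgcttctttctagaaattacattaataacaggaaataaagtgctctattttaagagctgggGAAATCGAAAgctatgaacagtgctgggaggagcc
Gbp3 promoter: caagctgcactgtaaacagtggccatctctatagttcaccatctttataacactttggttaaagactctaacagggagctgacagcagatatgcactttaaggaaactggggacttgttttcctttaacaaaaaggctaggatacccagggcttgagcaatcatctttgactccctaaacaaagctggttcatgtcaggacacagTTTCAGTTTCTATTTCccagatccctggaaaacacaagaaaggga
Igtp promoter: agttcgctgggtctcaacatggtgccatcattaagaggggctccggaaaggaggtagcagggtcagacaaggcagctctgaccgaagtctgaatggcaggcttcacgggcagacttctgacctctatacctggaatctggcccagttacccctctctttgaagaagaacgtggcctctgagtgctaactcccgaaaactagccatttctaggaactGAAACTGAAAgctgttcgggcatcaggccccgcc
Glo1 promoter: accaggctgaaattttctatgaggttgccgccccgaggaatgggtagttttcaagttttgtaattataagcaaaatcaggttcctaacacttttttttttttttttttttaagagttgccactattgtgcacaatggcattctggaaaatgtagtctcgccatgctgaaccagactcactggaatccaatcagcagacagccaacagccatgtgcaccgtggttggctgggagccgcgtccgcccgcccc
The match lies 54 bases before the start in Mndal, 35 in Ifi203, 45 and 39 in Gbp3 and 34 in Igtp. The Glo1 window holds none, as is so for most genes tested. Windows of other interferon-stimulated effectors, among them Samd9l, Oasl1, Trim25 and Xaf1, also held none, so the 4 genes shown do not stand for all.

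Across all genes tested that have such a window, 287 of 9178 (3.13%) held the motif in at least 1 of their windows. The share was 8 of 23 effectors (34.8%), 6 of 6 interferon-gamma GTPases and chemokines, 0 of 12 fatty acid oxidation genes and 2 of 18 respiratory chain genes. Among genes at an unadjusted p under 0.05 it was 19 of 349 lower genes (5.44%) and 11 of 272 higher genes (4.04%). A match is a description of letters and does not show binding.

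Genes of oxidative metabolism in mitochondria also lay lower. Of 15 fatty acid oxidation genes, 13 had a negative change (median -0.73), 5 at an unadjusted p under 0.05 in that direction and 0 in the other. Of 25 respiratory chain genes, 24 had a negative change (median -0.42), 4 of them at an unadjusted p under 0.05. Over all 11946 genes tested, 6813 had a negative change, and 3.75% were lower at an unadjusted p under 0.05. No member of either list passed the adjusted threshold. The counts under 0.05 varied with single arrays and with the model. With 1 array left out they ran from 1 to 7 of 15, lowest without WT sample 55, and from 0 to 7 of 25, being 0 without WT sample 55 or IFNAR1-/- sample 45 and 1 without WT sample 53 or 56 or IFNAR1-/- sample 46 or 50. Under the other settings they ran from 0 to 9 of 15 and from 1 to 15 of 25, the respiratory chain count being 1 with median centring, a variance trend, the inferred slide as a block or either array set alone. The medians ran from -0.95 to -0.60 and from -0.63 to -0.31 over all of these. The share of all genes under 0.05 in either direction moved as well, being 4.05% with the inferred slide as a block and 14.3% with array weights.

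Decr1, which handles unsaturated fatty acids in the oxidation pathway, ran from 3.61 through 4.54 to 5.41 in WT and from 2.90 through 3.49 to 4.11 in IFNAR1-/- glands, a change of -1.05 ± 0.38 (adjusted p = 0.668). The thiolase gene Acaa2 had a change of -0.73 ± 0.29, and Cpt2, which releases fatty acids from carnitine inside the mitochondrion, of -0.85 ± 0.35. Hadhb, a subunit of the trifunctional protein, and Acadvl, the very-long-chain acyl-CoA dehydrogenase, had a change of -0.73 ± 0.34 and -0.79 ± 0.38. In the respiratory chain, Cox5a of complex IV ran from -0.13 through 0.83 to 1.45 in WT and from -0.50 through -0.02 to 0.77 in IFNAR1-/- glands, a change of -0.63 ± 0.27 (adjusted p = 0.682). Ndufs3 of complex I had a change of -0.50 ± 0.23 and Uqcrc2 of complex III of -0.52 ± 0.25. The groups overlapped for each of these genes.

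Cox7a1, the complex IV subunit of heart, muscle and brown fat, ran from 2.31 through 3.35 to 4.44 in WT and from 0.54 through 1.79 to 3.54 in IFNAR1-/- glands. Its change was -1.55 ± 0.42 (adjusted p = 0.429), and -1.96 ± 0.46 without the 3 arrays high in muscle markers. The mean of the brown adipocyte markers, Cox7a1 among them, was 4.41 ± 0.27 (SD, range 4.04 to 4.77) in WT and 3.99 ± 0.25 (3.77 to 4.38) in IFNAR1-/- glands. Of the 5 measured, Cidea and Cox8b sat at the limit of 6 on all 15 arrays and Ucp1 averaged 6.0 and 5.93, so that a difference in those would not show. The remaining member had a change of -0.47 ± 0.68, with 4 of 7 WT and 5 of 8 IFNAR1-/- values repeated. The lower mean thus rests mainly on Cox7a1. Of 15 white adipocyte markers, 3 sat at the limit of 6 on all 15 arrays, and the other 12 split into 5 positive and 7 negative changes (median -0.09). Further markers lay close to that limit, where a difference may not show. Fatty acid and triglyceride synthesis genes had a median of -0.15 and no member at an unadjusted p under 0.05. The part of brown fat cells in the oxidative genes was not tested.

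On single arrays the mean of the fatty acid oxidation genes ran from 2.13 through 2.73 to 3.41 in WT and from 1.73 through 2.02 to 2.64 in IFNAR1-/- glands. That of the respiratory chain ran from 0.35 through 0.93 to 1.60 and from 0.04 through 0.50 to 1.13. WT samples 55 and 56 were the highest in both lists, and the groups overlapped. Without the 3 arrays high in muscle markers the medians were -0.77 and -0.56, with 5 of 15 and 5 of 25 members lower at an unadjusted p under 0.05. With the muscle mean as a covariate they were -0.77 and -0.55. With the B cell mean as a covariate the medians were -0.95 and -0.63, and 8 of 15 and 15 of 25 members were lower at an unadjusted p under 0.05. Of all 11946 genes, 587 were lower at that p with this covariate.

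**Figure D4:**
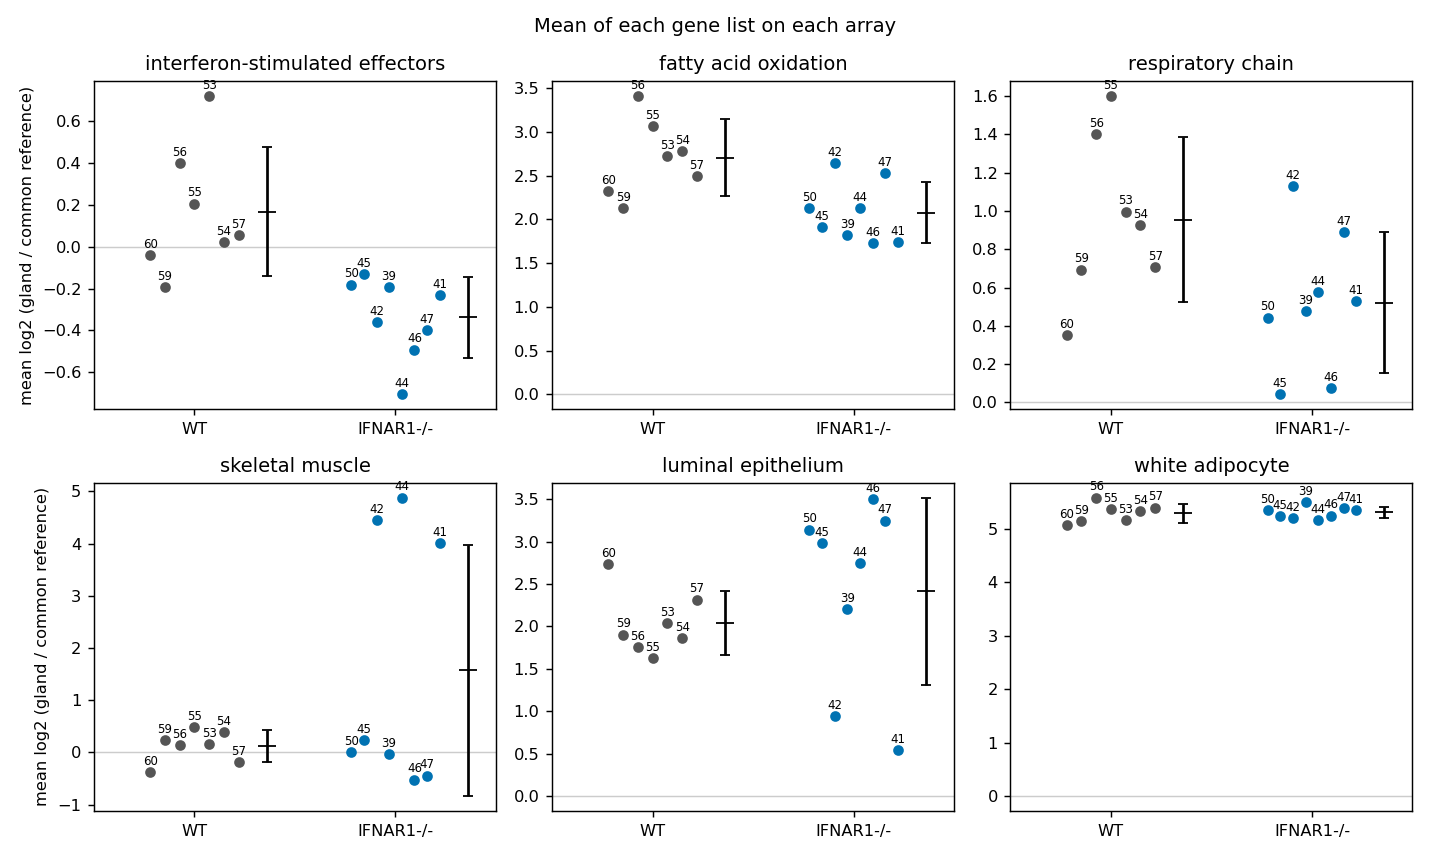
Each panel plots, for 1 gene list, the mean log2 ratio of gland over common reference of its members on each array, labelled with the sample number; the bar beside each group is its mean ± SD. The arrays of samples 41, 42 and 44 stand at 4.02 to 4.88 in skeletal muscle, the oxidative lists are lower in IFNAR1-/- glands with overlap, and the white adipocyte list lies between 5.07 and 5.59 on every array.

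Other metabolic and cell state lists stood near the background. Ribosomal protein genes had a median of 0.08 with 0 of 27 at an unadjusted p under 0.05, the leading one being Rpl19 with 0.36 ± 0.20. Cell cycle genes had a median of -0.21 and 1 of 23 lower, Tyms, the thymidylate synthase gene, with -0.73 ± 0.22 and repeated values on all of its arrays. Genes of endoplasmic reticulum stress had a median of 0.08 and 1 of 15 higher, Pdia4, a disulfide isomerase, with 1.21 ± 0.42. Among 17 detoxification genes, Glo1 stood alone at the lower end, while Gstp1, a glutathione transferase, had a change of 0.67 ± 0.28. Glycolysis genes had a median of 0.18, and -0.29 without the 3 arrays high in muscle markers.

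Stromal and epithelial markers tended to the higher side without passing the threshold. Of 21 extracellular matrix genes, 18 had a positive change (median 0.35), while in array set 2 alone 11 were positive and 10 negative (median 0.02). They were led by the gelatinase gene Mmp2, which ran from -0.21 through 1.05 to 1.19 in WT and from 0.42 through 1.91 to 2.39 in IFNAR1-/- glands (change 1.05 ± 0.45). The collagen gene Col6a2 had a change of 0.77 ± 0.41. Luminal markers had a median of 0.51 with 7 of 11 positive, and 0.95 with 11 of 11 positive and 3 at an unadjusted p under 0.05 without samples 41, 42 and 44. The luminal median was 0.015, with 4 of 8 positive, for genes with values on every array, 0.11 in array set 2 alone, 0.10 with the B cell mean as a covariate and -0.03 when only probes with at most 3 repeated values were kept. Krt7, a simple epithelial keratin, had a change of 1.79 ± 0.92, or 2.99 ± 0.96 without these samples, with 5 of 6 WT values repeated, and Krt14, a basal keratin, of 1.23 ± 0.56. Skeletal muscle markers, with 8 of 8 positive and a median of 1.32, went to a median of -0.55 over 7 genes without these samples. Acta1 had a change of 3.28 ± 0.91 with them and 1.55 ± 0.80 without them, and 5 of its 7 WT values were repeated.

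Lymphoid markers lay on the lower side. Cd3g, a chain of the T cell receptor complex, ran from -0.02 through 1.77 to 2.64 in WT and from -0.98 through -0.32 to 0.69 in IFNAR1-/- glands, a change of -1.90 ± 0.55 (adjusted p = 0.526), with 5 of 8 IFNAR1-/- values repeated. Its partners Cd3e and Cd3d, named after their values were seen, had a change of -0.68 ± 0.45 and -0.11 ± 0.96. Cr2, the complement receptor of B cells and follicular dendritic cells, was at the limit of 6 on all 6 WT arrays with a value. It ran from 0.62 through 5.05 to 6.0 on 7 IFNAR1-/- arrays, 4 of them with repeated values. Its change of -2.11 ± 0.88 thus involves capped and repeated values. Jchain, which joins antibody chains in plasma cells, had a change of -0.52 ± 0.24. Macrophage markers were balanced (6 of 12 positive, median 0.01), with C1qb, a complement component, at 1.76 ± 0.71.

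Further members with the smallest p of their lists showed the following. Pvalb, the parvalbumin gene of fast muscle, had a change of 2.77 ± 1.21, with 6 of 6 WT values repeated and too few values for a fit without samples 41, 42 and 44, and Lalba, a milk protein gene, of 1.29 ± 0.59, with 4 of 4 WT values repeated. Lep, the adipokine gene leptin, had a change of 1.22 ± 0.69, Srebf1, a regulator of lipid synthesis, of 1.76 ± 0.95, and Pparg, the regulator of adipocyte identity, of -0.35 ± 0.25. Of the WT values of Srebf1, 4 of 7 were repeated. Pfkl, a phosphofructokinase gene, was the only glycolysis gene at an unadjusted p under 0.05, with 0.76 ± 0.37. Among immune genes, Cd14 of macrophages had a change of 1.11 ± 0.55, the chemokine gene Ccl5 of -1.63 ± 1.04, and Ms4a1, which encodes CD20 of B cells, of -1.31 ± 0.91, or -2.18 ± 0.99 without samples 41, 42 and 44. The epithelial genes Krt19 and Acta2 had a change of 0.91 ± 0.61 and 0.49 ± 0.32, and without those samples of 1.59 ± 0.59 and 0.77 ± 0.33. None of them passed the adjusted threshold, and all had adjusted p-values of at least 0.705. The rule behind these names gave 95 genes; 27 more had changes from -0.96 to 1.08, of which Sbsn, a skin gene, with 1.08 ± 0.39, was at an unadjusted p under 0.05.

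By position, no chromosome stood apart. The share of genes at an unadjusted p under 0.05 ran from 4.34% on chromosome 12 to 8.11% on chromosome 9, around 6.80% overall. Of the 4 genes past the threshold, Glo1 and Flywch2 are both on chromosome 17, 6.81 Mb apart, in opposite directions.

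Within 2 Mb of Ifnar1, 2 of 26 other genes had an unadjusted p under 0.05, beside 6.80% of all genes tested. Ifngr2, which encodes a chain of the interferon-gamma receptor and lies at chr16:91547059-91564007, ran from -1.60 through -0.80 to -0.14 in WT and from -0.24 through -0.04 to 0.93 in IFNAR1-/- glands. Its change was 0.95 ± 0.27 (adjusted p = 0.484), and 5 of 8 IFNAR1-/- arrays lay above all WT arrays. Hunk, a kinase gene, had a change of -0.67 ± 0.30, with 6 of 7 WT values repeated. The median over the neighbours was -0.21.

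Around Glo1, 5 of 40 neighbours within 2 Mb had an unadjusted p under 0.05, all lower, beside 6.80% of all genes tested, 3.75% lower. Genes on either side were among them: Dnah8, a dynein heavy chain gene that begins 14.3 kb beyond Glo1, and Btbd9, which ends 10.2 kb before it. Dnah8 ran from -0.02 through 2.28 to 3.77 in WT and from -2.52 through -0.12 to 1.36 in IFNAR1-/- glands, a change of -2.30 ± 0.57 (adjusted p = 0.314), with 6 of 8 IFNAR1-/- values repeated. Btbd9 ran from -0.13 through 0.28 to 0.71 and from -1.62 through -0.63 to 1.63, a change of -0.74 ± 0.34 (adjusted p = 0.719). The transcript 1700097N02Rik between Glo1 and Dnah8, named after its values were seen as the neighbours were, had a change of -1.05 ± 0.39. The remaining ones, Abcg1 and Cyp4f16, had a change of -1.09 ± 0.48 and -1.11 ± 0.40. The median over the 40 neighbours was -0.06. In inbred mice a segment that holds Glo1 and parts of its neighbours is known to differ in copy number between strains; the number of copies in these mice was not measured.

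**Figure D5:**
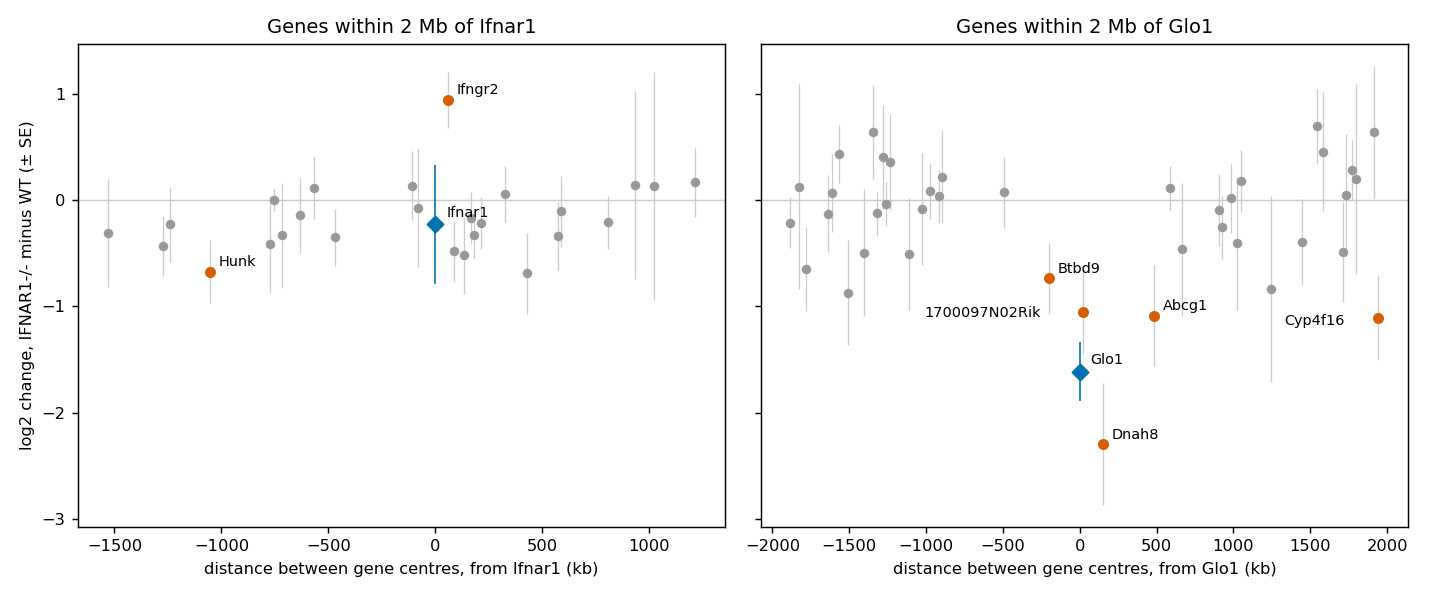
Each point is a gene within 2 Mb of Ifnar1 (left) or Glo1 (right), placed by the distance between gene centres in kb and by its log2 change, IFNAR1-/- minus WT, with its SE; the diamond is the central gene and dark orange points have an unadjusted p under 0.05. The 5 dark orange genes around Glo1 all lie below 0, while Ifngr2 beside Ifnar1 lies above it at 0.95.

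The same deletion in Her2/Neu+ glands, compared over the other 15 arrays, gave a change of Glo1 of the same size. Its level was 0.82 ± 0.31 (SD) over the 6 Her2/Neu+ arrays and -0.97 ± 0.83 over the 9 arrays with both, a change of -1.78 ± 0.28 (adjusted p = 0.00179), and the difference between both effects had an adjusted p of 0.896. Rnase4 rose there by 1.44 ± 0.28 (adjusted p = 0.0228), beside 1.22 ± 0.28 without the oncogene. Of its 6 Her2/Neu+ values, 2 were repeated ones. Tbc1d2 had a change of -0.73 ± 0.36 (adjusted p = 0.460), Flywch2 of -0.33 ± 0.37 and Gfpt2 of -0.91 ± 0.74. With the oncogene, Dnah8 had a change of -0.08 ± 0.58 and Btbd9 of -0.25 ± 0.34. There 1700097N02Rik had a change of 0.55 ± 0.40, Abcg1 of 0.66 ± 0.48 and Cyp4f16 of 0.23 ± 0.42. None of these neighbours of Glo1 had an unadjusted p under 0.05 with the oncogene. In that pair 12 genes (0.1%) passed the threshold, 9 higher (0.0753%) and 3 lower (0.0251%), and 1320 (11.1%) had an unadjusted p under 0.05, 6.82% higher and 4.23% lower.

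Beyond these genes the pairs shared about as many as the background of the second pair. Of the 812 genes at an unadjusted p under 0.05 without the oncogene, 44 (5.42%) were at that p in the same direction with it, and 28 (3.45%) in the opposite direction. Those 44 were 27 of the 364 higher (7.42%) and 17 of the 448 lower genes (3.79%), beside 6.82% and 4.23% of all genes with the oncogene, so nothing is read from their number. Across 11945 genes, which are not independent replicates, the changes of both pairs had a Pearson r of -0.02. Among the 44 were Gvin1 (-1.60 ± 0.47 and -1.17 ± 0.48, without and with the oncogene) and Gbp3 (-1.55 ± 0.59 and -1.53 ± 0.60). Named after their values were seen, they also held Acot13, a mitochondrial thioesterase gene (-0.78 ± 0.25 and -0.53 ± 0.25), Dynlt1c, a dynein light chain gene (0.77 ± 0.25 and 0.88 ± 0.25), and Inmt, an amine methyltransferase gene (1.18 ± 0.48 and 2.02 ± 0.49). Cish, a STAT5-induced inhibitor of cytokine signalling, had a change of 1.05 ± 0.38 and 1.29 ± 0.38. Chromosome 2 held 9 of the 44, beside 923 of all 11946 genes tested, and this was not tested. Of the 9, the predicted genes Gm14288, Gm14391, Gm14411 and Gm14326, also named after their values were seen, had positive changes in both pairs. The changes were 0.52 to 0.86 without and 1.69 to 2.36 with the oncogene. These genes lie within chr2:175185165-177957386, and how far their probes are specific is not known. Those 4 genes passed the threshold with the oncogene and not without it.

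List medians of the pairs are set side by side here, and no difference between them was tested. The median of the effectors was -0.46 without and -0.65 with the oncogene, and that of the GTPases and chemokines -0.91 and -0.89. For fatty acid oxidation it was -0.73 and -0.06, and for the respiratory chain -0.42 and 0.15.

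The difference between both effects passed the threshold for 3 genes (0.0251%), 1 positive (0.00837%) and 2 negative (0.0167%), and 1136 genes (9.51%) had an unadjusted p under 0.05, 6.62% positive and 2.89% negative. Tsc22d3, which encodes the glucocorticoid-induced leucine zipper protein, ran from 1.87 through 2.40 to 3.39 in WT and from 0.57 through 1.44 to 2.30 in IFNAR1-/- glands, a change of -1.05 ± 0.28 (adjusted p = 0.419). With the oncogene it had a change of 1.36 ± 0.29 (adjusted p = 0.0570), and the effects differed by 2.41 ± 0.41 (adjusted p = 0.0239). The Her2/Neu+ values of Tsc22d3 averaged 0.63 ± 0.81 (SD), and 2 of these 6 were repeated ones. Flywch2 differed by -3.06 ± 0.48 (adjusted p = 0.0294). With the oncogene it had values on 3 Her2/Neu+ arrays, 2 of them repeated, and on 5 Her2/Neu+/IFNAR1-/- arrays, 5 of them repeated. The third, the olfactory receptor gene Olfr1347, had a change of 0.10 ± 0.41 without and -4.48 ± 0.58 with the oncogene, the latter from 2 Her2/Neu+ arrays of which 1 held a repeated value. In limma's fit without WT sample 54, WT sample 56 or IFNAR1-/- sample 44 the difference passed for 0 genes, with 981, 1030 and 953 at an unadjusted p under 0.05.

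The spread between glands sets what could be seen. The median SD over genes within a group was 0.46 in WT and 0.61 in IFNAR1-/- glands, beside 0.74 in Her2/Neu+ and 0.65 in Her2/Neu+/IFNAR1-/- glands, and the median correlation between arrays of a group was 0.78 and 0.72 in the first pair. WT arrays were thus the most alike by both measures, as described over all genes and without a test.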

How the data were processed

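RNA of 30 mammary glands was measured on 2-colour Agilent arrays, 1 array per gland; 15 arrays are compared here. The values are the ratios deposited by the authors, read as log2 of Cy5 gland over Cy3 reference. The labels state neither the log base nor the direction. The log base was inferred from the scale limit of 6, and the direction from the dyes and the adipocyte markers. Background correction, normalization, rule for blanks and origin of repeated values are not given in the sources used here. Of 20896 probes, 17376 carried 1 gene symbol and 3520 none; 17029 named probes passed the filter and were averaged per gene, 2771 genes having several. Signal over background is unknown, so the number of arrays limits precision. Separate animals are not stated, so the p-values reflect only how much these samples vary.

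Genes were fitted with limma 3.58.1 (lmFit, eBayes) in R 4.3.3 over all 30 arrays with 1 mean per group, without further scaling, and adjusted by Benjamini-Hochberg over all genes; the fit was tested on simulated data. The members and the 34 lists were chosen with earlier results of these data known. By rule, named genes were those past the threshold, the 12 smallest p in each direction with mostly unrepeated values on nearly all arrays, the 2 smallest p of each list, and Ifnar1, Ifnar2 and Erbb2. Symbols of clones or predicted genes, Xist and Y-linked genes were not named by this rule. Further genes were named outside the rule, among them 1700097N02Rik and predicted genes on chromosome 2. Genes matched RefSeq (GRCm38.p6) by gene ID for 11990 of 12147. Promoter windows, also from RefSeq, covered 9178 of the 11946 genes tested. Alternatives covered scaling, filters, probes, variance models, array position, slide, array set, repeated values, muscle and B cell covariates, thresholds and leaving out arrays. Slides and array sets were inferred from the block numbers in the labels; no slide held both groups.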

Additional observations from a re-analysis of the deposited data

Results flagged for a closer look

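Single arrays lay apart from the rest of their group, by Dixon's test at the 95% level, in 26 of the 238.0 groups of values examined, where chance flags about 5% of groups. On the array of IFNAR1-/- sample 41 these were Gvin1 (2.82), Ifnar2 (-1.03), Parp14 (-0.62), Irf9 (1.80), Mmp2 (0.42), Krt14 (-0.088) and Dynlt1c (-1.05). Sample 42 stood apart in Pdia4 (1.89) and in the mean of the endothelial markers (2.99). Sample 45 did in Gbp3 (1.30), Btbd9 (1.63) and Pfkl (-2.39), and sample 47 in Rpl19 (-1.21).

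Among WT arrays, sample 60 stood apart in Flywch2 (0.13), H2-DMa (3.37), Pvalb (-0.11), Krt7 (3.54), Tyms (-0.34), Ptdss2 (-0.38), Hunk (-0.90) and the mean of the dendritic cell markers (1.64). Sample 55 did in Ica1l (2.66), Nlrc5 (-0.0092) and Axl (-3.38), sample 53 in Gfpt2 (0.80) and sample 57 in Parp14 (1.19). All measured WT values of Flywch2, Gfpt2, Pvalb, Tyms and Ptdss2 are repeated ones.

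The effect of receptor loss differed between glands with and without the oncogene, by limma's test of the difference, in Tsc22d3 (2.41 ± 0.41, adjusted p = 0.0239) and in Flywch2 (-3.06 ± 0.48, adjusted p = 0.0294). For Flywch2 all WT and Her2/Neu+/IFNAR1-/- values were repeated ones, as were 2 of its 3 Her2/Neu+ values. For Tsc22d3, 2 of 6 Her2/Neu+ values were repeated ones.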

How the results depend on the processing

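Against 4 genes past the threshold, the count was 2 with values required on every array, 7 in a fit of only the 15 arrays, 29 with array weights, 2 with repeated values missing, 2 with a minimum change of 1.5-fold, 2 for probes repeated on at most 3 of the 15 arrays (chosen after seeing the data), 1 in array set 2 alone and, by limma, 0 in array set 1 alone, where 464 genes had an unadjusted p under 0.05. Without samples 41, 42 and 44 it was 9. Leaving out 1 array gave 4 to 6. Against 12 genes in the glands with the oncogene, the count was 3 in array set 1 alone, 907 in array set 2 alone, 23 with repeated values missing, 7 at an adjusted p under 0.01, 25 at an adjusted p under 0.10 and 5 with the minimum change, and 10 to 15 with 1 array left out. Against 3 genes for the difference of the effects, it was 7 after quantile normalization, 1 with values on every array, 1 with the array set as a block, 487 in array set 2 alone, 5 with repeated values missing, 1 with the B cell covariate and 1 under the limit on repeated probes. It was 0 with array weights, array position, inferred slide, array set 1 alone, an adjusted p under 0.01, the minimum change or without samples 41, 42 and 44, and 0 to 4 with 1 array left out; over all settings with 0, limma left 233 to 1349 genes at an unadjusted p under 0.05. The cause was not tested. Medians of 19 of the 34 lists changed sign under at least 1 alternative, among them skeletal muscle and glycolysis (-0.55 and -0.29 without samples 41, 42 and 44), cell cycle (highest 0.22), B cell (0.11 with its own covariate) and luminal epithelium (-0.03 under the limit on repeated probes). Of the named genes, 3 changed sign, none of them past the threshold: Ifnar2 (-0.059 in array set 1 alone, -0.066 with the B cell covariate), Btbd9 (0.069 in array set 1 alone) and Ifnar1 (0.21 with the B cell covariate, -0.42 to 0.088 with 1 array left out, above 0 without WT sample 53). No paired analysis was possible because the sample numbers in the labels differ between the groups.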
